A study of Mus musculus with 8 samples.

Results

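The genes described here encode the nuclear part of respiratory complex I, the NADH:ubiquinone oxidoreductase of the mitochondrial inner membrane. They are the protein-coding genes whose Ensembl identifier in the deposited table of read counts carries a GENCODE M21 symbol that begins with Nduf, 46 of the 38293 identifiers listed. Poly(A) RNA was sequenced from the left ventricle of 8 untreated male mice, 8 weeks old, on a C57BL/6 background, with 1 library per heart. The mice with a knockout (KO) of Nbdy, the gene of the microprotein also called mORF4, gave 4 libraries (replicates 5 to 8), and wild-type (WT) mice gave 4 libraries (replicates 1 to 4). Neither the KO allele nor the breeding of the mice is described in the labels, and all tissue was whole ventricle, so each value is an average over all cell types in it. The comparison of KO with WT asks how loss of Nbdy alters these RNAs in the heart.

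Complex I takes electrons from NADH, passes them through a flavin and a chain of iron-sulfur clusters to ubiquinone, and pumps protons across the inner membrane. Its peripheral arm holds the N module, where NADH is oxidised, and the Q module, where ubiquinone is reduced. Its membrane arm pumps the protons through subunits that the mitochondrial genome encodes (the mt-Nd genes). All other subunits are made from nuclear genes, together with assembly factors that help to build the complex and are not part of it. Cardiac muscle is rich in mitochondria and depends on oxidative phosphorylation, so these genes are among its well-expressed transcripts. Of the 46 genes, 36 encode structural subunits and 8 encode assembly factors of the Ndufaf series. The other two, Ndufa4 and Ndufa4l2, carry the family name only: Ndufa4 is now placed with cytochrome c oxidase, and Ndufa4l2 is its hypoxia-induced paralog.

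Total counts ran from 11101901 to 14699949 per library, and 13336 genes had enough counts to be tested, all 46 complex I genes among them. Nbdy itself checks the genotype labels, and its transcript was measured at 9.92 ± 0.412 CPM in KO and 19.4 ± 0.470 CPM in WT (SD, n = 4 each), with no overlap between the groups. The log2 fold change of Nbdy was -0.97 ± 0.11 (SE; adjusted p = 0.0060 by edgeR's quasi-likelihood test with Benjamini-Hochberg adjustment over all genes tested), and without KO replicate 6 the adjusted p was 0.056. CPM is the usual count per library size, here after TMM scaling. The labelled tissue was checked against 8 cardiomyocyte markers, which summed to 75469 to 88500.5 CPM in KO hearts and 73155 to 87756 CPM in WT hearts. Mitochondrially encoded genes took 23.0 to 26.7% of the counts in KO libraries and 19.4 to 19.9% in WT replicates 2 to 4. WT replicate 1 stood apart with 29.2%, so the medians of the groups of complex I genes, apart from the Q module core, and their summed level and spread are given with and without it.

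None of the 46 complex I genes passed the threshold of an adjusted p of 0.05, in either direction, where 0.0225% of all genes tested did. The median log2 fold change of the 46, KO over WT, was -0.024, with 19 positive and 27 negative, and that of all genes tested was -0.0032. The values ran from -0.27 for Ndufab1 to 0.42 for Ndufa12, and the adjusted p in edgeR from 0.711 to 0.996. At an unadjusted p under 0.05 there was 1 gene of the 46 (Ndufa12, 2.17%), beside 6.4% of all genes. In 0 of the 46 did the KO and WT libraries fail to overlap, beside 4.12% of all genes. DESeq2 and limma-voom also called 0 of the 46, and each had the same 1 gene at an unadjusted p under 0.05. In whole tissue, fewer cells of a type and less RNA per cell cannot be told apart.

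The precision of these values bounds the size of change that could have been missed. The median SE of a log2 fold change was 0.13 over the complex I genes and 0.16 over all genes tested. For 44 of the 46 the 95% interval of the fold change, from the fit with all libraries, lay within 1.5-fold in both directions. The exceptions were Ndufa12, with an interval of 0.11 to 0.73 on the log2 scale, and Ndufs5, with -0.27 to 0.72. Intervals without WT replicate 1 are not given here. In that fit the log2 fold changes were -0.38 ± 0.12 for Ndufab1, -0.31 ± 0.13 for Ndufb3 and 0.34 ± 0.14 for Ndufa12 (SE). Summed over the 46 genes, the level was 19633 ± 1138 CPM in KO hearts and 20118 ± 2605 CPM in WT hearts (SD, n = 4 each), a ratio of 0.976. The WT libraries alone spanned 17032 to 23372 CPM, a range that held all KO libraries (18662 to 21250.5 CPM). Without WT replicate 1 the WT level was 21147 ± 1956 CPM (SD, n = 3) and the ratio 0.928.

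**Figure D1:**
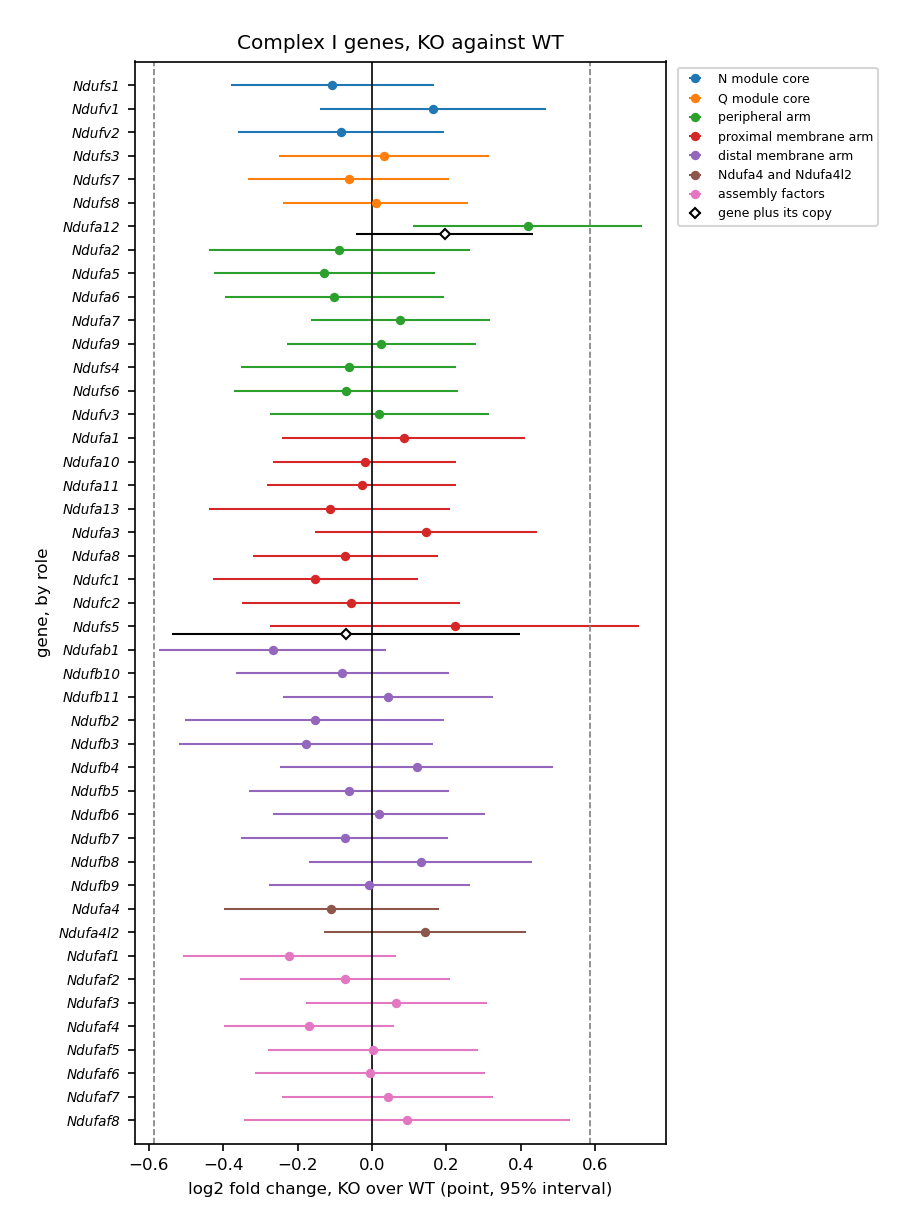
Log2 fold change, KO over WT, of 45 of the 46 complex I genes (x axis), grouped by role (y axis, colours); points are edgeR estimates, lines their 95% intervals, dashed lines mark a 1.5-fold change, and open diamonds show Ndufa12 and Ndufs5 with the counts of a near-identical pseudogene added. All intervals but those of Ndufa12 and Ndufs5 lie between the dashed lines, and Ndufa12 alone has an interval that leaves out 0.

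The N module core holds Ndufv1, which binds the flavin and NADH, Ndufv2, which carries an iron-sulfur cluster, and Ndufs1, the largest subunit, with further clusters. Ndufv1 had 834, 645, 589 and 674 CPM in KO replicates 5 to 8, against 551, 677, 529 and 691 CPM in WT replicates 1 to 4. KO replicate 5 was the highest of the 8 libraries and WT replicate 3 the lowest, and the groups overlapped. The fold change on the log2 scale was 0.16 ± 0.14 (± SE here and for all fold changes, with an adjusted p of 0.843 in edgeR). Ndufv2 had 717, 627, 638 and 705 CPM in KO replicates 5 to 8, against 608, 815, 633 and 791 CPM in WT replicates 1 to 4, with a log2 fold change of -0.083 ± 0.13. Ndufs1 had 394, 384, 322 and 444 CPM in KO replicates 5 to 8, against 366, 447, 399 and 449.9 CPM in WT replicates 1 to 4, with a log2 fold change of -0.11 ± 0.13. The highest Ndufv2 value was in WT replicate 2 and the lowest Ndufs1 value in KO replicate 7, and the groups overlapped in both genes. The median of the 3 genes was -0.083, with 1 positive and 2 negative, and -0.15 without WT replicate 1.

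The Q module core, which holds the ubiquinone site and the last iron-sulfur clusters, had log2 fold changes from -0.062 to 0.032. Ndufs7, the subunit with the terminal cluster, had 930.0, 916, 1014 and 960.2 CPM in KO replicates 5 to 8, against 819, 1159.5, 1021 and 989.6 CPM in WT replicates 1 to 4, and a log2 fold change of -0.062 ± 0.12. Ndufs8, which carries a further pair of clusters, had 343, 314, 339 and 337 CPM in KO replicates 5 to 8, against 305, 368, 288 and 363 CPM in WT replicates 1 to 4, and a log2 fold change of 0.0097 ± 0.12. In both genes the KO values lay within the WT range. Ndufs3, a core subunit of the Q module without a cluster of its own, had 273, 245, 246 and 274 CPM in KO replicates 5 to 8, against 209.9, 289.9, 225 and 291 CPM in WT replicates 1 to 4, and a log2 fold change of 0.032 ± 0.13. Its WT libraries split into a higher pair (replicates 2 and 4) and a lower pair (replicates 1 and 3), with the KO libraries between them.

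Of the 9 accessory subunits of the peripheral arm, 4 were positive and 5 negative, with a median of -0.063 (-0.13 without WT replicate 1). Ndufa12, a late-joining subunit that takes the place of the assembly factor Ndufaf2, had the smallest p of all 46 genes and is described with its pseudogene. Without it the peripheral genes ran from -0.13 (Ndufa5) to 0.076 (Ndufa7). Ndufa5, a small subunit of the Q module, had 835, 743, 816 and 775 CPM in KO replicates 5 to 8, against 693, 1076, 886 and 808 CPM in WT replicates 1 to 4. WT replicate 2 was the highest library and WT replicate 1 the lowest, and all KO libraries lay between them (log2 fold change -0.13 ± 0.14, adjusted p = 0.885 in edgeR). Ndufs4, whose loss in mice causes a disease model resembling Leigh syndrome, had 237, 228, 233 and 240.4 CPM in KO replicates 5 to 8, against 194, 301, 226 and 259 CPM in WT replicates 1 to 4, and a log2 fold change of -0.063 ± 0.13. Its 4 KO libraries lay close together inside the wider WT range.

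Of the 9 accessory subunits of the proximal membrane arm, 3 were positive and 6 negative, with a median of -0.027 (-0.10 without WT replicate 1). Ndufc1, a small membrane subunit, had 409.9, 369, 379 and 379 CPM in KO replicates 5 to 8, against 359, 509, 456 and 384 CPM in WT replicates 1 to 4. Both the highest and the lowest Ndufc1 value were in WT libraries (log2 fold change -0.15 ± 0.13, adjusted p = 0.837 in edgeR). Ndufa3 (0.15), the X-linked Ndufa1 (0.085) and Ndufs5 (0.22) were the 3 positive genes. Ndufa13, also known as a cell-death regulator under the name Grim19, stood at -0.11 ± 0.15, and its KO libraries ran from 705 to 1045 CPM, with WT libraries from 811 to 1097 CPM.

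Of the 11 accessory subunits of the distal membrane arm, 4 were positive and 7 negative, with a median of -0.062 (-0.13 without WT replicate 1). Ndufab1, the mitochondrial acyl carrier protein, which sits in the complex and also serves mitochondrial fatty acid synthesis, had the lowest fold change of the 46 genes. It had 246, 237, 251 and 254 CPM in KO replicates 5 to 8, against 227, 373, 311 and 278 CPM in WT replicates 1 to 4. The 4 KO libraries lay within 237 to 254 CPM, and 3 of the 4 WT libraries lay above them, with WT replicate 1 below. The log2 fold change of Ndufab1 was -0.27 ± 0.14 (unadjusted p = 0.0819, adjusted p = 0.783 in edgeR). Without WT replicate 1 it was -0.38 ± 0.12 (unadjusted p = 0.0101, adjusted p = 0.316 in edgeR). Ndufb9, which binds an acyl carrier protein in the distal arm, had 1246, 952, 1008 and 1048 CPM in KO replicates 5 to 8, against 981, 1205, 1076 and 1013 CPM in WT replicates 1 to 4, and a log2 fold change of -0.0069 ± 0.12. KO replicate 5 was its highest library and KO replicate 6 its lowest. Ndufb3, a further small subunit of this arm, stood at -0.18 ± 0.16, and at -0.31 ± 0.13 without WT replicate 1 (unadjusted p = 0.0370, adjusted p = 0.428 in edgeR).

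Ndufa4, the subunit now placed with cytochrome c oxidase, had 1661, 1483, 1505 and 1519.7 CPM in KO replicates 5 to 8, against 1383, 2048, 1616 and 1606 CPM in WT replicates 1 to 4. WT replicate 2 was the highest library and WT replicate 1 the lowest, and the log2 fold change was -0.11 ± 0.13 (adjusted p = 0.903 in edgeR). Ndufa4l2, its paralog that cells induce under low oxygen, had 24.4, 24.6, 23.6 and 20.7 CPM in KO replicates 5 to 8, against 17.5, 23.5, 20.7 and 23.0 CPM in WT replicates 1 to 4. Of the KO libraries, 3 lay above all WT libraries and replicate 8 lay among them, and the log2 fold change was 0.14 ± 0.13 (adjusted p = 0.854 in edgeR).

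The 8 assembly factors of the Ndufaf series were evenly split, with 4 positive and 4 negative and a median of -0.0011. That median was -0.083 without WT replicate 1 and -0.096 without KO replicate 5, and with another library left out it ran from -0.046 to 0.049. Ndufaf1, which works with Ecsit and Acad9 on the membrane arm, had 31.1, 32.9, 31.1 and 37.7 CPM in KO replicates 5 to 8, against 33.2, 40.8, 33.7 and 47.0 CPM in WT replicates 1 to 4. WT replicate 4 was the highest library, and the log2 fold change was -0.22 ± 0.13 (adjusted p = 0.797 in edgeR). Ndufaf8, a partner that stabilises the Ndufs7 hydroxylase Ndufaf5, had 56.6, 31.0, 31.1 and 30.3 CPM in KO replicates 5 to 8, against 28.0, 40.5, 39.2 and 32.1 CPM in WT replicates 1 to 4. KO replicate 5 stood apart from all other libraries, and the other 3 KO libraries lay between WT replicate 1 and WT replicate 4. The log2 fold change of Ndufaf8 was 0.095 ± 0.20 with all libraries and -0.18 without KO replicate 5 (adjusted p of 0.952 and 0.916 in edgeR). Ndufaf2, the factor that gives way to Ndufa12, stood at -0.072 ± 0.13, Ndufaf5 at 0.0021 ± 0.13, and Ndufaf7, a methyltransferase, at 0.043 ± 0.13. Ndufaf3 and Ndufaf4, which act together early in Q module assembly, stood at 0.066 ± 0.11 and -0.17 ± 0.11. In each of these factors the KO and WT libraries overlapped. Of 13 tested assembly factors with other names, among them Ecsit, Acad9 and Timmdc1, 8 were positive and 5 negative (median 0.049, and -0.0023 without WT replicate 1), and none passed. Tmem70 had the smallest p of these, with 59.4 ± 6.20 CPM in KO and 68.1 ± 3.85 CPM in WT (SD, n = 4 each) and a log2 fold change of -0.20 ± 0.11 (adjusted p = 0.784 in edgeR).

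Ndufa12 (ENSMUSG00000020022, chr10:94198720-94221443 in GRCm38, plus strand) was the complex I gene with the largest positive fold change. It had 217, 238, 259 and 253 CPM in KO replicates 5 to 8, against 149.7, 189, 155 and 229 CPM in WT replicates 1 to 4. All KO libraries lay above WT replicates 1, 2 and 3, and WT replicate 4 lay above KO replicate 5. The log2 fold change was 0.42 ± 0.14 (SE, unadjusted p = 0.0115, adjusted p = 0.711 in edgeR), with a range of 0.34 to 0.55 over 17 alternative fits. The table also lists Gm15920, a processed pseudogene at chr5:130188395-130188796 that matches 402 bases of the Ndufa12 transcript at 99.5% identity. How reads that match more than 1 place were counted is not given in the sources used here, so the split of reads between gene and copy is uncertain.

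Gm15920 had 726, 31, 27 and 39 counts in KO replicates 5 to 8, against 749, 679, 573 and 31 counts in WT replicates 1 to 4. The counts fell into a high and a low set that crossed the genotypes, high in KO replicate 5 and WT replicates 1, 2 and 3, and low in KO replicates 6, 7 and 8 and WT replicate 4. The libraries with 27 to 39 counts of the pseudogene held the 4 highest Ndufa12 values. Of the counts of gene and copy together, the copy took 19.0, 0.917, 0.812 and 1.33% in KO replicates 5 to 8, against 28.7, 24.8, 23.1 and 1.03% in WT replicates 1 to 4. With the copy's counts added, a step chosen after seeing the data, Ndufa12 had 256 ± 11.8 CPM in KO hearts and 224 ± 22.4 CPM in WT hearts (SD, n = 4 each). The log2 fold change was then 0.20 ± 0.11 (SE, unadjusted p = 0.0981, adjusted p = 0.784 in edgeR). The part of the pseudogene in the fold change of Ndufa12 was not tested beyond this sum.

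Ndufs5 (ENSMUSG00000028648, chr4:123712710-123718202, minus strand), a subunit on the intermembrane side of the membrane arm, showed a like division. The gene had 470, 687, 345 and 642 counts in KO replicates 5 to 8, against 353, 381, 597 and 377 counts in WT replicates 1 to 4. Its processed pseudogene BC002163 (chr16:42955631-42955949, 99.37% identity over 319 bases) had 1781, 503, 1399 and 404 counts in KO replicates 5 to 8, against 968, 1368, 516 and 1391 counts in WT replicates 1 to 4. KO replicates 6 and 8 and WT replicate 3 were high in the gene and low in the copy, and the other 5 libraries were the reverse, again across both genotypes. The copy held 216% of the gene's own counts over all libraries. Alone, Ndufs5 had 41.2 ± 13.5 CPM in KO and 35.3 ± 9.49 CPM in WT (SD, n = 4 each) and a log2 fold change of 0.22 ± 0.23. With the copy added the values were 118 ± 35.3 CPM in KO hearts and 123 ± 31.3 CPM in WT hearts (SD, n = 4 each), and the log2 fold change was -0.070 ± 0.22 (adjusted p = 0.970 in edgeR).

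Few bases separate each gene from its copy, so the stretches around the differing bases are shown. Each is 25 bases of the GENCODE M21 transcript (1110 bases for Ndufa12, 525 for Ndufs5) and the matching bases of the pseudogene in GRCm38, 5′ to 3′, with the differing base in capitals. Positions count from 1 at the transcript's 5′ end, the gene's base stands first and the pseudogene's last, and both differences found in each aligned stretch are shown.
Ndufa12 at A225G: agacaaatatggAaataaatactac
Gm15920 at A225G: agacaaatatggGaataaatactac
Ndufa12 at T504C: tcatgaatgggtTccaccttcgaca
Gm15920 at T504C: tcatgaatgggtCccaccttcgaca
Ndufs5 at T173C: agaacagccctaTaagaacgccgct
BC002163 at T173C: agaacagccctaCaagaacgccgct
Ndufs5 at A197G: tcggtgccacgcAtttgaaaaagag
BC002163 at A197G: tcggtgccacgcGtttgaaaaagag
A read that covers neither position within the aligned stretch matches both places equally well. The other 5 genes with a copy of at least 95% identity over at least 200 bases in the table were Ndufs3, Ndufb4, Ndufab1, Ndufs6 and Ndufb11. Their copies held 0.377% to 2.26% of the gene's own counts, and adding them left the log2 fold change of each of these 5 genes the same to 2 decimals.

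**Figure D2:**
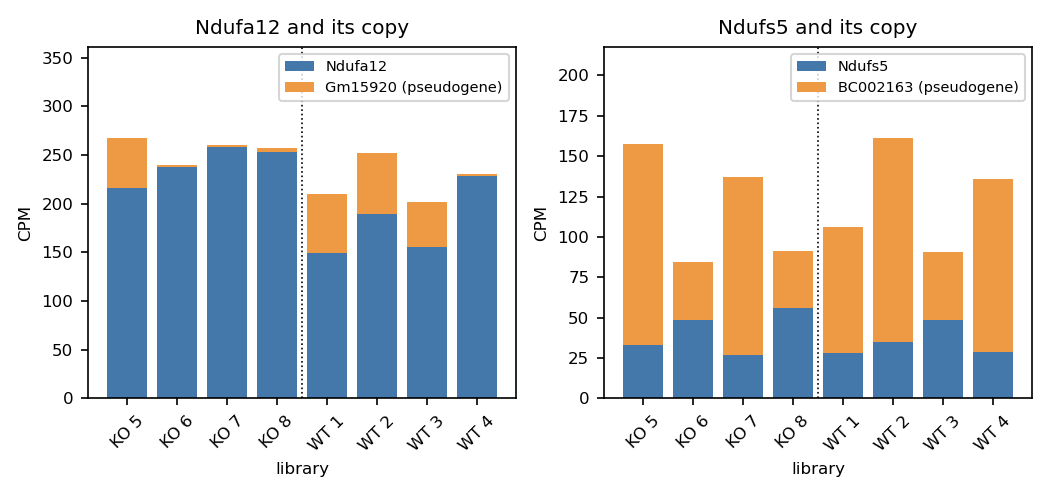
CPM of Ndufa12 with its pseudogene Gm15920 (left) and of Ndufs5 with its pseudogene BC002163 (right) in each of the 8 libraries, stacked; blue is the gene and orange the copy. The orange share is 19.0% in KO 5 and 23.1 to 28.7% in WT 1 to WT 3 on the left and 0.812 to 1.33% in the other libraries, and on the right it is lowest in KO 6, KO 8 and WT 3.

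The levels of the complex I genes varied together from library to library, and the widest gap lay between a pair of WT hearts. Each gene's log2 CPM was set against its own mean over the 8 libraries, and the median over the 46 genes was taken per library. This median was 0.073, -0.077, -0.059 and 0.012 in KO replicates 5 to 8, against -0.23, 0.21, 0.0050 and 0.069 in WT replicates 1 to 4. The lowest and the highest library were both WT hearts, low in replicate 1 and high in replicate 2, with all KO hearts between them. Of the 46 genes, 34 (73.9%) had their lowest value in WT replicate 1, beside 13.8% of all genes tested, and 25 (54.3%) their highest in WT replicate 2, beside 19.8% of all genes tested. For all genes, too, WT replicate 2 was the library that most often held the highest value, but it also most often held the lowest (19.1%). The SD of CPM, not on the log scale, was larger in WT than in KO for 34 of the 46 genes (73.9%, beside 64.9% of all genes tested). The median ratio of these SDs, WT over KO, was 2.23 (1.27 over all genes). Without WT replicate 1 it was 1.71 (1.18 over all genes), with the larger SD in WT for 31 of the 46 genes (67.4%, beside 58.8%). The median coefficient of variation over the 46 genes was 7.69% in KO and 14.95% in WT, beside 12.9% in KO and 16.8% in WT over all genes tested, and the WT value was 12.8% without WT replicate 1 (15.6% over all genes).

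**Figure D3:**
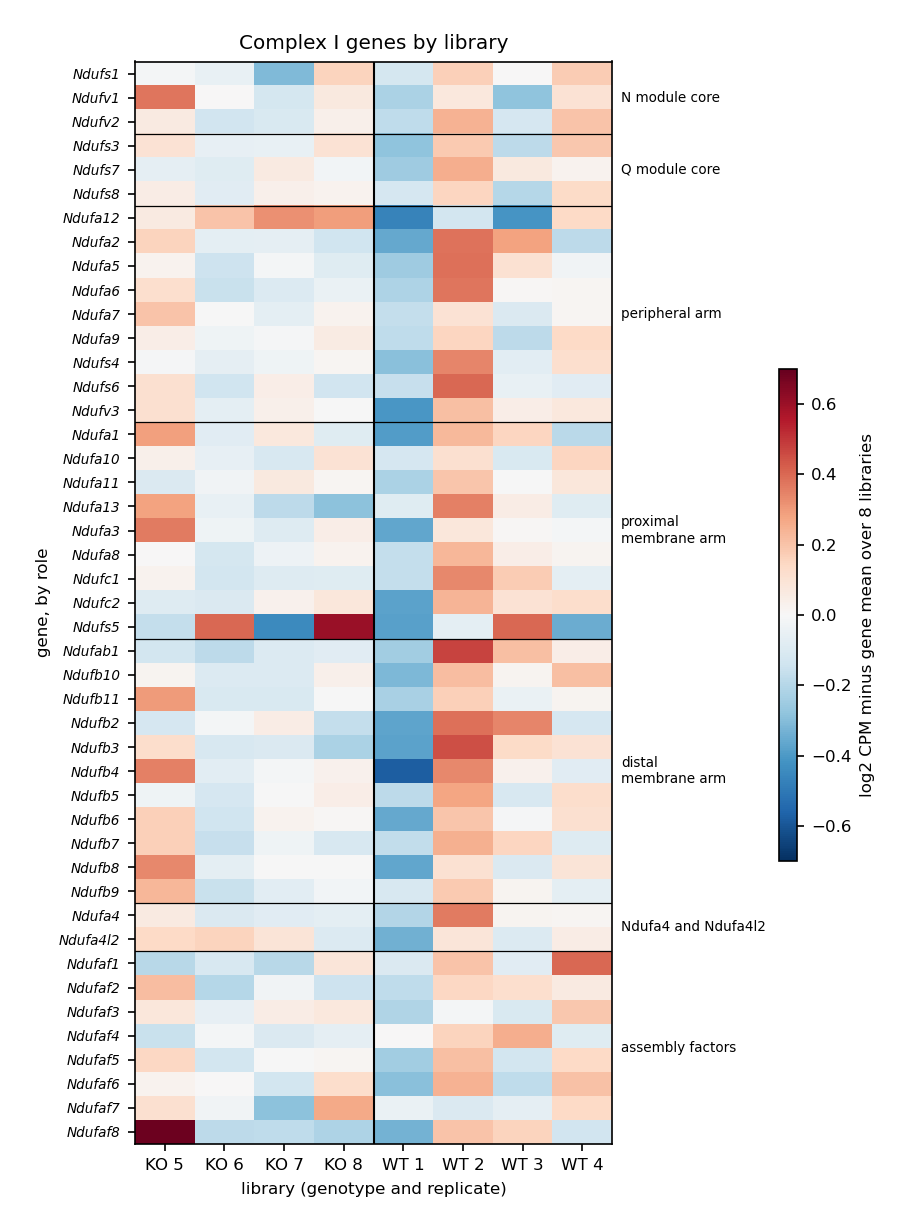
Each gene's log2 CPM minus its mean over the 8 libraries (colour), with 45 genes by role down the page and libraries across, KO left of WT. The column of WT 1 is mostly blue (34 of all 46 genes are lowest there) and that of WT 2 mostly red (25 of all 46 are highest there), while Ndufa12, Ndufs5 and Ndufaf8 depart from the pattern of their neighbours.

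The median over the 46 genes lay close to 0, and its sign differed between settings. It was positive without WT replicate 2, with 1 surrogate variable (0.041) and with the trend in GC content and transcript length removed (0.014), and negative with any other single library left out. Without WT replicate 1 the median log2 fold change was -0.097. In that edgeR fit 3 of the 46 genes had an unadjusted p under 0.05, beside 1442 of all 13336 genes tested. The 3 were Ndufa12, Ndufab1 and Ndufb3, none with an adjusted p under 0.316. Without WT replicate 2 the median was 0.037, and 1 gene, Ndufa12, had an unadjusted p under 0.05 in edgeR, beside 657 of all 13336 genes tested. The same 2 hearts stood at the ends in most lists of the other nuclear respiratory genes and in mitochondrial ribosomal proteins. WT replicate 1 had the lowest median deviation in the lists of complex II (-0.27), complex III (-0.24), complex IV (-0.27), ATP synthase (-0.20) and mitochondrial ribosomal proteins (-0.17). WT replicate 2 had the highest in all of these (0.23 in complex III, 0.22 in complex IV, 0.18 in ATP synthase, 0.16 in mitochondrial ribosomal proteins) except complex II, where WT replicate 4 was higher (0.24 against 0.16). After a trend with GC content and transcript length was removed per library, the complex I median lay between -0.033 and 0.021 in KO hearts and was -0.14 in WT replicate 1 and 0.12 in WT replicate 2. The 8 cardiomyocyte markers had median deviations of 0.0071, -0.043, -0.094 and 0.11 in KO replicates 5 to 8, against -0.13, 0.088, -0.15 and 0.044 in WT replicates 1 to 4. Their part in the complex I pattern was not tested.

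Of the 5 tested subunits that the mitochondrial genome encodes, 4 were highest in WT replicate 1, where most nuclear subunits were lowest. Of 7 mt-Nd genes, 5 were tested, all 5 were positive (median log2 fold change 0.40), and none passed. mt-Nd4, a proton-pumping subunit, had 30223, 29557, 32924 and 32234 CPM in KO replicates 5 to 8, against 35219, 19073, 16786 and 23489 CPM in WT replicates 1 to 4. WT replicate 1 was the highest of all libraries and the other WT replicates the lowest, so the KO libraries lay between (log2 fold change 0.40 ± 0.21, adjusted p = 0.777 in edgeR). Per count of a nuclear Nduf gene there were 5.27, 5.96, 6.86 and 5.62 mt-Nd counts in KO replicates 5 to 8, against 8.44, 3.59, 3.86 and 4.34 in WT replicates 1 to 4. The KO hearts thus lay above 3 of the WT hearts and below WT replicate 1. Library preparation selected for poly(A) RNA, so these ratios reflect the captured RNA only. The untested mt-Nd3 had 366 counts in KO replicate 8 and at most 3 in any other library, and mt-Nd4l had at most 2 in any library. mt-Nd6, a further membrane subunit, was the exception in WT replicate 1. It had 499, 119, 121 and 97.0 CPM in KO replicates 5 to 8, against 124, 169, 103 and 104 CPM in WT replicates 1 to 4, so KO replicate 5 stood apart. Leaving out KO replicate 5 gave a median over the 5 mt-Nd genes of 0.16, leaving out WT replicate 1 gave 0.66, and leaving out WT replicate 2 or 3 gave 0.26 or 0.25.

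In the lists of the other nuclear respiratory genes and of mitochondrial ribosomal proteins, 126 genes were tested and 0 passed in edgeR. An unadjusted p under 0.05 was found for 4 of the 126 (Sdhaf4, Cox6a2, Atp5h and Mrpl1), beside 853 of all 13336 genes tested (6.4%). Complex II had 3 positive and 5 negative, median -0.092, complex III 4 positive and 5 negative, median -0.0029, complex IV 6 positive and 10 negative, median -0.025 (16 of 18 tested) and ATP synthase 11 positive and 6 negative, median 0.024. The mitochondrial ribosomal proteins, which translate the mt-Nd subunits, had 20 positive and 56 negative, median -0.049 (76 of 77 tested), so 26.3% were positive beside 49.4% of all genes tested. Without WT replicate 1 these 5 medians were -0.20, -0.076, -0.12, -0.049 and -0.10, and without WT replicate 2 -0.057, 0.078, 0.069, 0.066 and -0.0029, in the same order. Cox6a2, the muscle form of a cytochrome c oxidase subunit, had 3315, 2869, 2812 and 2929 CPM in KO replicates 5 to 8, against 2317, 2636, 2195 and 2582 CPM in WT replicates 1 to 4. All KO libraries lay above all WT libraries (log2 fold change 0.29 ± 0.12, adjusted p = 0.736 in edgeR). Atp5h, a stator subunit of ATP synthase, lay the other way without overlap, with 1199.6 ± 59.1 CPM in KO and 1476 ± 235 CPM in WT (SD, n = 4 each) and a log2 fold change of -0.30 ± 0.13 (adjusted p = 0.772 in edgeR). Cox6a2 was 1 of 16 tested complex IV genes (6.25%) and Atp5h 1 of 17 ATP synthase genes (5.88%). The share without overlap was 0% in complex II, complex III and mitochondrial ribosomal proteins, and 4.12% over all genes tested. Sdhaf4, an assembly factor of complex II, stood at -0.39 ± 0.15, Cyc1, the cytochrome c1 of complex III, at 0.24 ± 0.12 and Mrpl1, a protein of the large mitochondrial ribosomal subunit, at -0.26 ± 0.12.

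Of the tested markers of other cell types that a piece of ventricle holds, 0 passed in edgeR and 3 had an unadjusted p under 0.05. The 3 were Col3a1 (1 of 7 fibroblast markers), Alas2 (1 of 7 blood markers) and Mrc1 (1 of 6 macrophage markers). None of the 6 endothelial or the 6 smooth muscle and pericyte markers did so, beside 6.4% of all genes tested. The summed levels of each list overlapped between the genotypes. Single markers lay lower in all KO than in all WT libraries for 1 of 7 fibroblast and 1 of 6 macrophage markers. Over all genes tested, 4.12% did not overlap in either direction. The 7 fibroblast markers were all negative (median -0.21), with sums of 896 to 1164 CPM in KO and 1094 to 1398 CPM in WT. This median was -0.13 when KO replicate 5 was left out, -0.30 when WT replicate 1 was and -0.12 when WT replicate 2 was. Col3a1 stood at -0.30 ± 0.14. The 7 blood markers had 6 positive and 1 negative (median 0.31), with sums of 1165 to 2171 CPM in KO and 831 to 1811 CPM in WT. Their median was 0.11 without WT replicate 1, 0.14 without KO replicate 5 and 0.50 without WT replicate 2. Alas2 stood at 0.49 ± 0.19. Endothelial markers (median -0.014; Tek -0.24 ± 0.12), macrophage markers (median -0.014; Mrc1 -0.42 ± 0.14) and markers of smooth muscle and pericytes (median -0.081; Cspg4 -0.16 ± 0.16) summed to 1056 to 1403 CPM in KO and 1114 to 1372 CPM in WT, 132 to 206 CPM in KO and 125 to 191 CPM in WT, and 721 to 1354 CPM in KO and 937 to 1170.4 CPM in WT. With 1 library left out, these 3 medians ran from -0.077 to 0.060, from -0.15 to 0.15 and from -0.32 to 0.0066, in the same order. The cardiomyocyte markers had a median of -0.0069, and Myl2, the ventricular regulatory myosin light chain, stood at 0.14 ± 0.12. Of 4 brown fat markers Cidea alone was tested (0.24 ± 0.21), and Ucp1, which defines that tissue, averaged 0.0394 CPM in KO and 0.0192 CPM in WT. The part of these cell types in the complex I values was not tested.

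Levels of different genes were compared per length, as CPM per kilobase of 1 chosen GENCODE M21 transcript. By the medians of their groups, subunits stood above assembly factors in both genotypes. The median level was 396 in KO and 368 in WT for the N module core, 522 in KO and 521 in WT for the Q module core and 538 in KO and 511 in WT for the peripheral accessory subunits. It was 667 in KO and 722 in WT for the proximal and 496 in KO and 492 in WT for the distal membrane arm, and 21.5 in KO and 22.5 in WT for the Ndufaf factors. On the chosen transcripts the highest level was that of Ndufa4, with 2528 ± 132 in KO and 2727 ± 456 in WT (SD, n = 4 each), followed by Ndufb9 with 1511 ± 182 in KO and 1518 ± 140.3 in WT. The next genes in order, Ndufs7 (1260.0 ± 57.7 in KO and 1316 ± 184 in WT) and Ndufc1 (1220.0 ± 56.3 in KO and 1356 ± 217 in WT), differed from each other by less than their spread. Ndufaf7 was the lowest, with 15.3 ± 2.42 in KO and 14.9 ± 1.12 in WT, and Ndufa4l2 lay among the assembly factors (25.0 ± 1.92 in KO and 22.7 ± 2.92 in WT). The least abundant subunits were Ndufab1 (71.0 in KO and 85.4 in WT), Ndufs5 (78.5 in KO and 67.2 in WT) and Ndufb4 (89.7 in KO and 82.6 in WT). These values depend on the transcript: over annotated transcripts the mean level of Ndufc1 ran from 325 to 1288 and that of Ndufab1 from 78.2 to 192. On their shortest transcripts Ndufa5 (2632) and Ndufa6 (1862) stood above Ndufb9 (1514), so the order of the highest genes is uncertain. Ndufaf8 reached 84.6 on its shortest transcript, above Ndufs5 (56.3 to 72.9), Ndufab1 on its longest and Ndufb2 on its longest (56.3), and the copy of Ndufs5 may hold part of its reads.

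**Figure D4:**
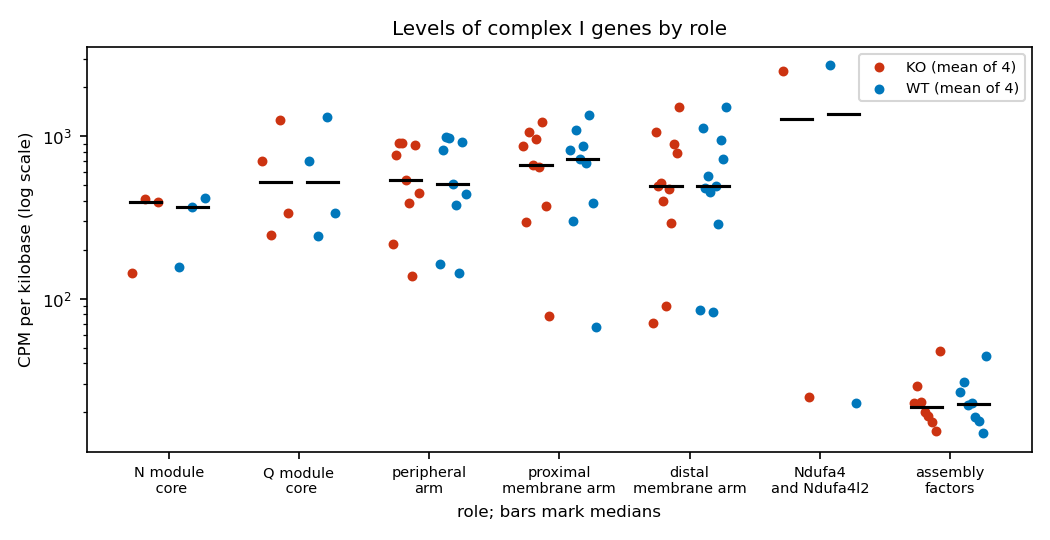
Level of each complex I gene in CPM per kilobase of transcript (y axis, log scale) by role (x axis), with 1 point per gene at the mean of 4 libraries, red for KO and blue for WT, and bars at the medians. Assembly factors (14.9 to 47.7) and Ndufa4l2 (22.7 and 25.0) lie below all structural subunits on the transcripts chosen, the lowest of which is Ndufs5 in WT at 67.2.

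The 46 genes lie on 17 chromosomes, with Ndufa1 and Ndufb11 on X, and their transcripts are short, with a median of 892 bases beside 2857 for all genes tested, at a GC content of 52.2% beside 50.6%. A gene on the opposite strand overlaps 18 of them, and the strand setting of the counting is not given in the sources used here. RefSeq start sites (GRCm38.p6) matched 40 of the 46 genes, with a window from 250 bases before to 50 bases after the start. The windows of the other 6 genes were not used here. The median GC content of the 40 windows was 59.2%, beside 52.8% for 27025 genes, of which 17492 were protein-coding. The motif AAGATGGCG, which fits the factor YY1, was in 6 of the 40 windows (15%), beside 1.64% of all windows and 2.14% of those of protein-coding genes. The NRF1 motif CGCATGCG was in 4 (10%, beside 2.07% of all windows), the ETS motif CCGGAAGT in 1 (2.5%, beside 4.31%) and the ERR motif TCAAGGTCA in 0 (beside 0.466%). Among the windows of protein-coding genes the NRF1, ETS and ERR shares were 2.77%, 5.69% and 0.377%. Both strands were searched, no window held more than 1 of these motifs, and no test was made. A match is a run of letters and not a shown binding site.

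The YY1-type matches shared a place as well as letters, which is why they are shown. All 6 lay on the gene's own strand, 11 to 36 bases after the start, and in 5 of them the ATG inside the motif was the annotated start codon of the protein (all but Ndufaf8). Where the motif lies in the windows of other genes is not given here, so this place cannot be called particular to complex I genes. The 30 bases around each match are given 5′ to 3′ on the gene's strand, with the motif in capitals, from chr6:126849096-126849125 (Ndufa9, minus), chr3:51408914-51408943 (Ndufc1, minus), chr13:114388045-114388074 (Ndufs4, minus), chr13:73328433-73328462 (Ndufs6, minus), chr10:80249463-80249492 (Ndufs7, plus) and chr11:120098934-120098963 (Ndufaf8, plus).
Ndufa9: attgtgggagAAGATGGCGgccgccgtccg
Ndufc1: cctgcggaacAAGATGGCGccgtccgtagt
Ndufs4: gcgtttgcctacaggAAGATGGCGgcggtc
Ndufs6: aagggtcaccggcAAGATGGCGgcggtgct
Ndufs7: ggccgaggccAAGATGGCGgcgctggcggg
Ndufaf8: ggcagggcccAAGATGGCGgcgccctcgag
The 4 windows with the palindromic NRF1 motif, at chr17:56717692-56717721 (Ndufa11, plus), chr2:36049329-36049358 (Ndufa8, minus), chr4:24897960-24897989 (Ndufaf4, plus) and chr2:140170652-140170681 (Ndufaf5, plus), had it at scattered places, from 112 bases before to 18 bases after the start.
Ndufa11: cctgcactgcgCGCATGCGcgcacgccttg
Ndufa8: gtcgctggagaCGCATGCGcagatggtacc
Ndufaf4: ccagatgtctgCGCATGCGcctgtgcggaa
Ndufaf5: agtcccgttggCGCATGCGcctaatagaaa
The log2 fold changes of the 6 genes with the YY1-type motif were 0.026, -0.15, -0.063, -0.070, -0.062 and 0.095 in the order shown, and those of the 4 with the NRF1 motif -0.027, -0.072, -0.17 and 0.0021. Both sets lay within the range of the other complex I genes.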

How the data were processed

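RNA from the left ventricle of 4 KO and 4 WT mice was made into TruSeq stranded poly(A) libraries, 1 per heart, per the labels' protocols. Per the submitters' processing notes, the aligner was STAR 2.7.1a and the genome GRCm38 (mm10). The authors deposited 1 table of raw counts per Ensembl gene, with no normalization. Not given in the sources used here are the counting tool, its strand setting, how it treated reads with several matches, and its annotation release. These choices affect antisense neighbours and pseudogene copies. Columns were matched to samples by name, and 0 were left unmatched. Symbols, positions and transcripts came from GENCODE M21 (36429 of 38293 identifiers matched).

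The quasi-likelihood test of edgeR 4.0.16 (glmQLFit and glmQLFTest in R 4.3.3, two-sided) compared KO with WT, with no further term. Before it, filterByExpr removed genes of low count (minimum 10) and TMM factors scaled the libraries. P-values were adjusted over the 13336 genes left by the Benjamini-Hochberg method, and 0.05 was the threshold. Intervals of fold changes are the estimate plus or minus its SE times the t quantile. Total counts of 11101901 to 14699949 limit the precision, and the biological coefficient of variation was 0.179. No library repeated another: between any pair, a chi-square of the counts over its degrees of freedom was at least 10.8. The test was checked on simulated data. The labels name no batch.

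Other tools were tried (DESeq2 1.42.0 and limma-voom 3.58.1), as were other scalings (library totals and the size factors of DESeq2) and other filters (none, or 1 CPM in 4 libraries). Further alternatives left out mitochondrially encoded genes, added 1 surrogate variable (sva 3.50.0), took out a trend with GC content and length (splines of 4 degrees of freedom), used an adjusted p of 0.10, or left out each library once. Adding the counts of near-identical copies, found with BLAST among annotated transcripts, was chosen after seeing the data. The members and lists were chosen with earlier results of these data known, so no set test was made.

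The rule for named genes takes Nbdy and any complex I gene, with values per library for the N and Q module core, Ndufa4, Ndufa4l2, Ndufab1 and, in each role, the gene with the smallest p and the one with the highest level per kilobase. One gene of the Q module core is counted in all totals and is not reported by itself here. From each other list it takes the gene with the smallest p. Ndufs4, Ndufs5, Ucp1 and the pseudogenes Gm15920 and BC002163 were given values outside that rule, after their values were seen. Levels per kilobase use the principal basic transcript that matches RefSeq, or the shortest of several.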

Additional observations from a re-analysis of the deposited data

Results flagged for a closer look

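In 6 of 70 groups of 4 libraries 1 library stood far from the other 3 by Dixon's criterion (critical value 0.829), which chance alone passes in about 1 of 20 groups. KO replicate 5 held 56.6 CPM of Ndufaf8, and the other KO libraries 30.3 to 31.1 CPM. KO replicate 6 held 22.5 CPM of Alas2, a gene of heme synthesis in red cells, and the other KO libraries 35.8 to 39.3 CPM. WT replicate 1 held 25.8 CPM of Sdhaf4, and the other WT libraries 38.7 to 42.0 CPM. WT replicate 1 had 8.44 mt-Nd counts per nuclear Nduf count, and the other WT libraries 3.59 to 4.34. The pseudogene Gm15920 stood at 50.8 CPM in KO replicate 5, with 2.12 to 3.41 CPM in the other KO libraries. In WT the lone library was on the other side: WT replicate 4 held 2.38 CPM of Gm15920, and the other WT libraries 46.8 to 62.6 CPM.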

How the results depend on the processing

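The count of 0 complex I genes past the threshold was the same in every alternative run, and the smallest adjusted p of any of them was 0.316 (Ndufab1 without WT replicate 1). The median of the 46 ran from -0.097 without WT replicate 1 to 0.041 with 1 surrogate variable, within the spread between libraries, and it was -0.071 with library totals, where the median of all genes moved to -0.051. Of the 46 genes, 27 changed sign in at least 1 of 17 alternative fits. Over all genes, edgeR with the settings described called 3, DESeq2 11, no filter 10 and 1 surrogate variable 5, and with 1 library left out the count ran from 2 to 6 (5 without WT replicate 1, 6 without WT replicate 4). With 1 library left out, the log2 fold change of Nbdy ran from -0.99 to -0.95. Signs turned for Ndufs3 (-0.015) and Ndufs8 (-0.036) with library totals, for Ndufs7 (0.027) and Ndufb9 (0.037) with 1 surrogate variable, and for Ndufv2 (0.052), Ndufs8 (-0.051) and Ndufa4 (0.028) with the GC content and length trend removed. With 1 library left out, log2 fold changes ran for Ndufs3 from -0.049 to 0.10, for Ndufs7 from -0.15 to 0.018, for Ndufs8 from -0.055 to 0.064, for Ndufa4 from -0.19 to 0.0069, for Ndufb9 from -0.092 to 0.056 and for Ndufaf8 from -0.18 to 0.18. The cause was not tested. No paired analysis was possible because WT replicates are numbered 1 to 4 and KO replicates 5 to 8. With 4 hearts a group, the values are compatible with a change of any size within the intervals given. RNA levels say nothing of protein or of complex I activity.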
